A study of Mus musculus with 7 samples.

Results

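Genes that build fatty acids and triglycerides were followed over the 7 deposited arrays of cultured mouse mammary glands. The list holds 10 genes of the pathway, Thrsp, Fasn, Scd1, Acaca, Acly, Elovl6, Me1, Srebf1, Dgat2 and Gpam. They were chosen by pathway, with earlier results on these same arrays known, and the levels that drew attention to them are the levels described here, so no value below is a test. A probe stood for a gene where its accession matched that gene in RefSeq. In this way 7 of the 10 genes were measured, by 8 probes, among 13971 genes named in all, and Scd1, Acaca and Gpam, which had no matched probe, were not analysed here.

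The glands were thoracic mammary glands of 4-week-old female mice in mouse mammary gland organ culture (MMOC), a serum-free culture of the intact gland with its fat pad. Culture ran for 10 days of growth promotion with insulin and prolactin, each at 5 µg/ml, and aldosterone and hydrocortisone, each at 1 µg/ml, and the 24-day glands then had 14 days with insulin alone. The protocol adds 2 µg/ml of DMBA, a polycyclic aromatic hydrocarbon carcinogen, on Day 3 for 24 h. The question was how loss of estrogen receptor α (αERKO) or β (βERKO) changes expression in glands exposed to DMBA. The 7 groups were αERKO and βERKO glands of C57BL6/129SV background at 24 days, WT glands of C57 mice at 24 days with DMBA, at 24 days without DMBA and at 10 days without DMBA, and wild-type BALB/c glands at 24 days with and without vitamin D5. The paper describes the αERKO, βERKO and WT glands that it compared on arrays as exposed to DMBA, although only the WT title names it. Whether the BALB/c glands had DMBA is not given in the sources used here, nor is the dose of vitamin D5. The mice of this genotype comparison had been injected with EGF (25 ng) and progesterone (1 mg) over 5 days. The study also used progesterone with 1 µg estrogen over 9 days, and which pretreatment the arrays outside this comparison had is not given in the sources used here. Equal amounts of RNA of 5 mice were pooled for each of the WT, αERKO and βERKO arrays. The knockouts and their WT controls differ in strain background as well as in the receptor, and these cannot be told apart. The paper describes the WT and βERKO RNA as coming from glands with alveolar lesions and the αERKO RNA from glands free of them, so that genotype and lesions cannot be told apart either. Its methods, however, also say that lesion-free αERKO glands provided no material for molecular work, and which tissue the αERKO array holds was not tested.

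There was 1 array per group, so no difference has a replicate check and no p-value is given. A level is the log2 of a probe's background-subtracted intensity over the median of all 34967 gene probes of its array, and a log2 ratio is the difference of 2 levels of 1 probe. As a guide to precision, the SD of a log2 ratio between probes of the same accession is given for each comparison. It covers the disagreement of probes on 1 pair of arrays and neither animals nor repeat arrays. Between 68.4% and 74.2% of gene probes were called good, that is, above background, and the median intensity was 39.1 to 53.0 over a local background of 80 to 83. All 8 probes of the measured genes were good on all 7 arrays. The probe for Esr2, the gene targeted in βERKO mice, was good on the array titled as its knockout, at a level of 0.87, and lower on the WT array with DMBA, at -5.88, where it was not above background. It was also good on the WT 24-day array without DMBA, at -0.55. The array titled as the Esr2 knockout is therefore called the array labelled βERKO. The probe for Esr1, the gene targeted in αERKO mice, was not above background on the αERKO array, nor on either WT array without DMBA. It was good on the WT array with DMBA, at -1.02.

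In this pathway, citrate exported from mitochondria is split to acetyl-CoA, acetyl-CoA is carboxylated and condensed into palmitate at the cost of NADPH, and palmitate is elongated, desaturated and esterified to glycerol. The transcription factor SREBP-1, together with the liver X receptor and the carbohydrate-responsive factor ChREBP, sets the expression of these enzymes in response to insulin and nutrients. In the mammary gland the pathway is used by adipocytes of the fat pad and, in lactation, by the secretory epithelium that makes milk fat.

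The promoters of 4 measured genes are shown because these genes include those with the largest ratios between the knockout arrays (Thrsp, Fasn and Elovl6) and Acly, which stood next in that comparison. Each holds 250 bases before and 50 bases after the annotated start, 5′ to 3′ on the gene's strand, from RefSeq on GRCm38.p6. Capitals mark CCAAT boxes, the 5-letter element bound by NF-Y, read on either strand. Thrsp lies at chr7:97417501-97417800 on the minus strand, Fasn at chr11:120824498-120824797 on the minus strand, Acly at chr11:100527951-100528250 on the minus strand and Elovl6 at chr3:129532136-129532435 on the plus strand.
Thrsp: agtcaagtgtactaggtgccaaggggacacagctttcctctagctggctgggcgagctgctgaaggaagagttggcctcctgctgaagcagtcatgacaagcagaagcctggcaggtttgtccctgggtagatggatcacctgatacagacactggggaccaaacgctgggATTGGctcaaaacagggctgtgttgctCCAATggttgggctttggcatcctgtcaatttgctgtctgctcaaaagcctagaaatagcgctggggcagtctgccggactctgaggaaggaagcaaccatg
Fasn: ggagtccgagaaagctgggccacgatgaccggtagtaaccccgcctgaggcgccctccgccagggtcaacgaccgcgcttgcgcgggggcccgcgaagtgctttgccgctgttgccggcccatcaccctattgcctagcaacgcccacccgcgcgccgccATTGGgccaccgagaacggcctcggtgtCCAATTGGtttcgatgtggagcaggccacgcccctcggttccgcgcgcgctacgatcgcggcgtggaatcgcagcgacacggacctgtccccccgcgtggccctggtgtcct
Acly: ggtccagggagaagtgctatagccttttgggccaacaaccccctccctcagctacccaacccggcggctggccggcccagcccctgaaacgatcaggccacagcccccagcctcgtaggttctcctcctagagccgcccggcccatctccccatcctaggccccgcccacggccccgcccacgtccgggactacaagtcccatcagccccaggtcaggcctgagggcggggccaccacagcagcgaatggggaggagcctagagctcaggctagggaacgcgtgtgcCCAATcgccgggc
Elovl6: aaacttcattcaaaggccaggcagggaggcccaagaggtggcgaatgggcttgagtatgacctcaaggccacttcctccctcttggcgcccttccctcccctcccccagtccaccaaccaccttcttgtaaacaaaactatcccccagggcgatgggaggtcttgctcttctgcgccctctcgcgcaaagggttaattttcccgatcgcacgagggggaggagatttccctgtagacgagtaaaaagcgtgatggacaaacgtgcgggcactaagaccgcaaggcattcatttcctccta

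The Thrsp promoter held a CCAAT box at bases -79 to -75 and another at -52 to -48, counted from the start. In the Fasn promoter there were 3, at -90 to -86, at -62 to -58 and at -59 to -55, the last pair sharing bases, and in the Acly promoter 1, after the start, at 38 to 42. The Elovl6 promoter held none. Promoters were listed for 6 of the 7 measured genes, with 9 starts in all, and Dgat2 had no entry. Of these 9, 6 held CCAAT and 4 held GGGCGG, the GC box, against 37.4% and 35.9% of all 32544 promoters of that length, and both strands were read. The core of the sterol response element, TCACNCCAC, the E-box CACGTG and the TATA box TATAAA were in 0 of the 9, and in 1.24%, 7.17% and 13.6% of all promoters. These are matches of letters in a short window and say nothing about what binds there.

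Thrsp, the thyroid hormone responsive protein that tracks the rate of fat synthesis in liver, fat and lactating mammary gland, had the widest range of the 7 genes. Its level was 1.42 on the WT 10-day array, 3.56 on the WT 24-day array without DMBA and 6.15 on the WT 24-day array with DMBA. Among the others, αERKO had 6.97, the array labelled βERKO 0.45, BALB/c 1.81 and BALB/c with vitamin D5 1.99. The lowest and the highest array were those of the knockouts, 91.6-fold apart in level. This is a log2 ratio of 6.52, which was 5.53 with normexp background correction. Before scaling to the array medians, the Thrsp intensities on these arrays were 57.8 and 4890, and the local background on the arrays was 80 to 83. In the order of levels, each neighbouring pair was further apart than the SD of its ratio except the BALB/c arrays. The array labelled βERKO lay 0.97 below the lowest wild-type array, the 10-day one.

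Fasn encodes fatty acid synthase, the enzyme that makes palmitate, and was measured by 2 probes. By the brighter probe (GE37741) its level was 4.30 at 10 days, 4.79 at 24 days and 6.94 at 24 days with DMBA in WT glands. The αERKO array read 8.40, the array labelled βERKO 4.53, and BALB/c 4.45 both without and with vitamin D5. The αERKO array and the WT array with DMBA thus stood apart from the other 5, which lay within 0.49 of each other and whose neighbours in the order did not differ beyond the SD. The dimmer probe (GE33283) read -0.59, 0.15 and 2.97 on those WT arrays, 2.96 for αERKO, -0.18 on the array labelled βERKO, and -1.18 and -0.69 on the BALB/c arrays. Both probes were brightest on the same pair of arrays, but only the brighter one put αERKO above WT with DMBA, by 1.46 against -0.01.

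Acly, ATP citrate lyase, supplies the acetyl-CoA. Its level was 2.48, 2.93 and 4.32 on the WT arrays at 10 days, 24 days and 24 days with DMBA, 4.60 for αERKO, 3.32 on the array labelled βERKO, 1.89 on the BALB/c array and 2.59 with vitamin D5. The highest pair, αERKO and WT with DMBA, differed by less than the SD of their ratio. Me1, the cytosolic malic enzyme that yields NADPH, varied least among the enzymes, over 2.20-fold. Its level was 5.43, 5.88 and 5.99 on those WT arrays, 6.57 for αERKO, 5.95 on the array labelled βERKO, and 5.48 and 5.65 on the BALB/c arrays. No neighbouring pair in that order differed beyond the SD.

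Elovl6, the elongase that lengthens palmitate to stearate, followed another order. Its level was 5.95, 5.36 and 4.98 on the WT arrays at 10 days, 24 days and 24 days with DMBA, 7.68 for αERKO, 4.71 on the array labelled βERKO, 5.26 on the BALB/c array and 5.75 with vitamin D5. The αERKO array stood 1.73 above the next, and here that next array was the WT 10-day array, not the DMBA array as for Thrsp, Fasn, Acly, Me1 and Dgat2.

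Dgat2 encodes a diacylglycerol acyltransferase of the last step to triglyceride. Its level was 1.76, 2.82 and 4.50 on those WT arrays, 4.91 for αERKO, 4.02 on the array labelled βERKO, 1.49 on the BALB/c array and 2.07 with vitamin D5, a 10.7-fold range. Unlike Thrsp and Fasn, it was above both WT levels without DMBA on each knockout array. On the array labelled βERKO it was 1.20 above the WT 24-day array without DMBA. It was 0.48 below the one with DMBA there, beyond the SD of 0.37. Srebf1, which encodes SREBP-1, varied over 2.08-fold. It read 2.04, 1.77 and 2.54 on the WT arrays, 1.48 for αERKO, 1.99 on the array labelled βERKO, and 1.58 and 1.80 on the BALB/c arrays. Its lowest level was on the array where 6 other members were highest (Fasn by its brighter probe only). That lowest level was within the SD of the next one, BALB/c.

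**Figure D1:**
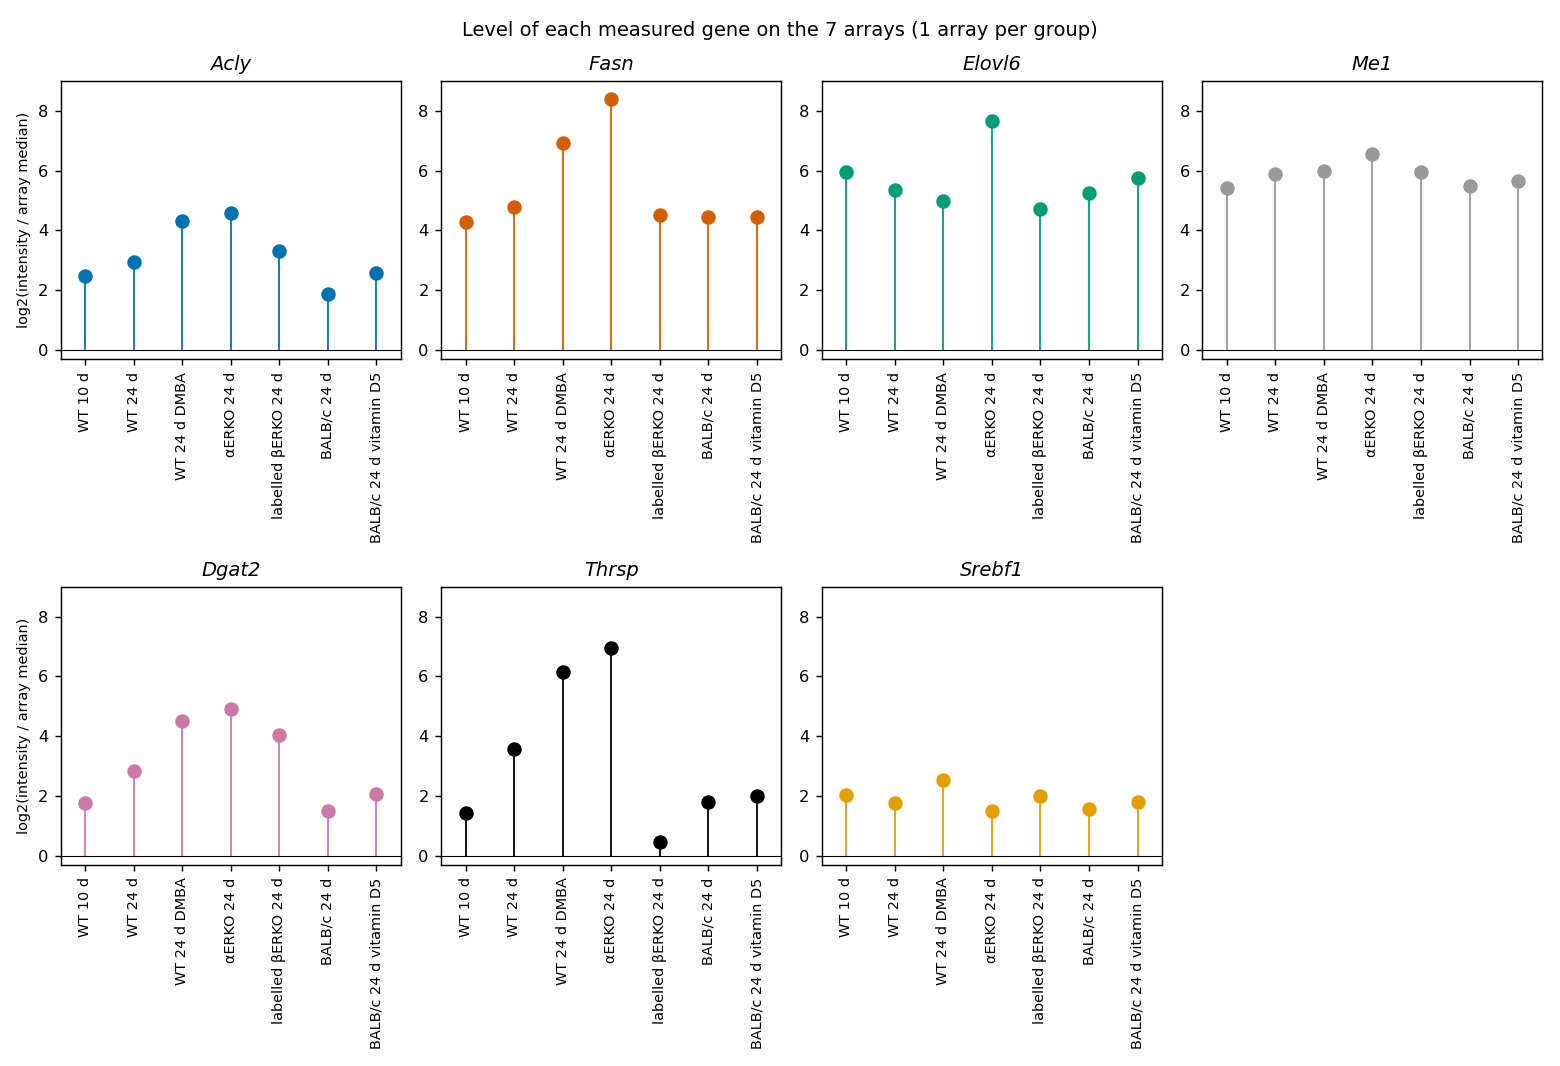
Each panel plots 1 gene's level (log2 of intensity over the array median, by its brighter probe where there are 2) on the 7 arrays, each point being 1 array. Thrsp spans 0.45 to 6.97, and Srebf1 1.48 to 2.54.

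Between αERKO and WT glands, with the WT array with DMBA as the control, Elovl6 and Fasn were over 2-fold higher and Srebf1 over 2-fold lower. The log2 ratio was 2.70 for Elovl6, 1.46 for Fasn and -1.06 for Srebf1, with an SD of 0.59 from 524 probe pairs. Thrsp at 0.81, Me1 at 0.58, Dgat2 at 0.40 and Acly at 0.28 stayed within 2-fold. So 2 of 7 members were higher and 1 lower, where 11.7% of all probes above background were over 2-fold higher and 14.1% lower, and the median of the members was 0.58 against -0.09 for all probes tested. Srebf1 was within 2-fold under other scalings, at -0.93 with the 75th percentile, -0.95 with quantile normalization and -0.85 with cyclic loess. Thrsp passed 2-fold with cyclic loess, at 1.04. The mean of both Fasn probes was 0.73.

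The WT array with DMBA is the control that matches the knockout glands as the paper describes them. Against the WT array without DMBA, which differs in the carcinogen too and whose pretreatment is not given, the differences were larger for most members. The αERKO ratio was then 3.61 for Fasn, 3.41 for Thrsp, 2.32 for Elovl6, 2.09 for Dgat2 and 1.66 for Acly. Me1 had 0.69 and Srebf1 -0.28, with an SD of 0.67 from 506 probe pairs. These ratios put 5 of 7 members over 2-fold higher and 0 lower, beside 15.4% of probes higher and 20.9% lower. Their median was 2.09 against -0.22 for all probes tested. Adipocyte markers differed by as much, with 10 of 12 higher, 0 lower and a median of 2.10, and 8 of 8 fibroblast markers were higher, with a median of 3.79. Higher too were 10 of 10 skeletal muscle markers, with 8.03, and 4 of 7 endothelial ones, with 1.92. Lower were 7 of 10 luminal epithelial markers, with -1.27, and 7 of 9 secretory ones, with -2.10. The part of these cell types in these ratios was not tested.

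For the array labelled βERKO against WT with DMBA, Thrsp and Fasn were over 2-fold lower. The log2 ratio of Thrsp was -5.70, and -4.93 with normexp background correction. Without that correction, 1 of the 23072 probes good on both arrays had a lower ratio than Thrsp. The ratio of Fasn was -2.41 by the brighter probe and -3.15 by the other, with an SD of 0.37 from 545 probe pairs. Acly had -0.999, Srebf1 -0.55, Dgat2 -0.48, Elovl6 -0.27 and Me1 -0.03. All 7 ratios were below 0, with a median of -0.55 against 0.09 for all probes tested, and 0 members were over 2-fold higher and 2 lower, beside 6.96% and 8.37% of probes. Acly lay at the threshold and passed it under 75th percentile scaling, at -1.05.

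Of these 2 genes, only Thrsp was also over 2-fold lower against the WT array without DMBA, at -3.11. The SD of a ratio in that comparison was 0.33 from 528 probe pairs. Fasn had -0.26 there, Acly 0.38, Elovl6 -0.65, Me1 0.07, Srebf1 0.22 and Dgat2 1.20, so that 1 member was over 2-fold higher and 1 lower, beside 8.24% and 6.9% of probes, with a median of 0.07 against -0.06. The Fasn level on the array labelled βERKO therefore stood with those of the wild-type arrays other than the DMBA one.

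Both knockout comparisons share their WT array, and the DMBA comparison uses it too, so these ratios are not independent of each other. The knockouts were also set directly against each other. Thrsp had a log2 ratio of 6.52, Fasn 3.87 (3.14 by its dimmer probe), Elovl6 2.97 and Acly 1.28, with an SD of 0.56 from 519 probe pairs. Dgat2 had 0.88, Me1 0.62 and Srebf1 -0.50. With normexp background correction Thrsp had 5.53. Thus 4 of 7 were higher on the αERKO array and 0 lower by 2-fold, beside 13.5% and 16.6% of probes, with a median of 1.28 against -0.18. Between the same arrays 6 of 12 adipocyte markers were higher and 0 lower, with a median of 1.03, 7 of 8 fibroblast markers were higher, with 2.16, and 10 of 10 skeletal muscle markers, with 7.73. Lower were 6 of 10 luminal epithelial markers, with -1.04, and 6 of 8 secretory ones, with -1.54. The part of these cell types was not tested. Dgat2 passed 2-fold with the 75th percentile, at 1.06, and Me1 with cyclic loess, at 1.03. Over all probes, 44.9% of those over 2-fold were higher on the αERKO array, which became 55.8% with 75th percentile scaling.

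**Figure D2:**
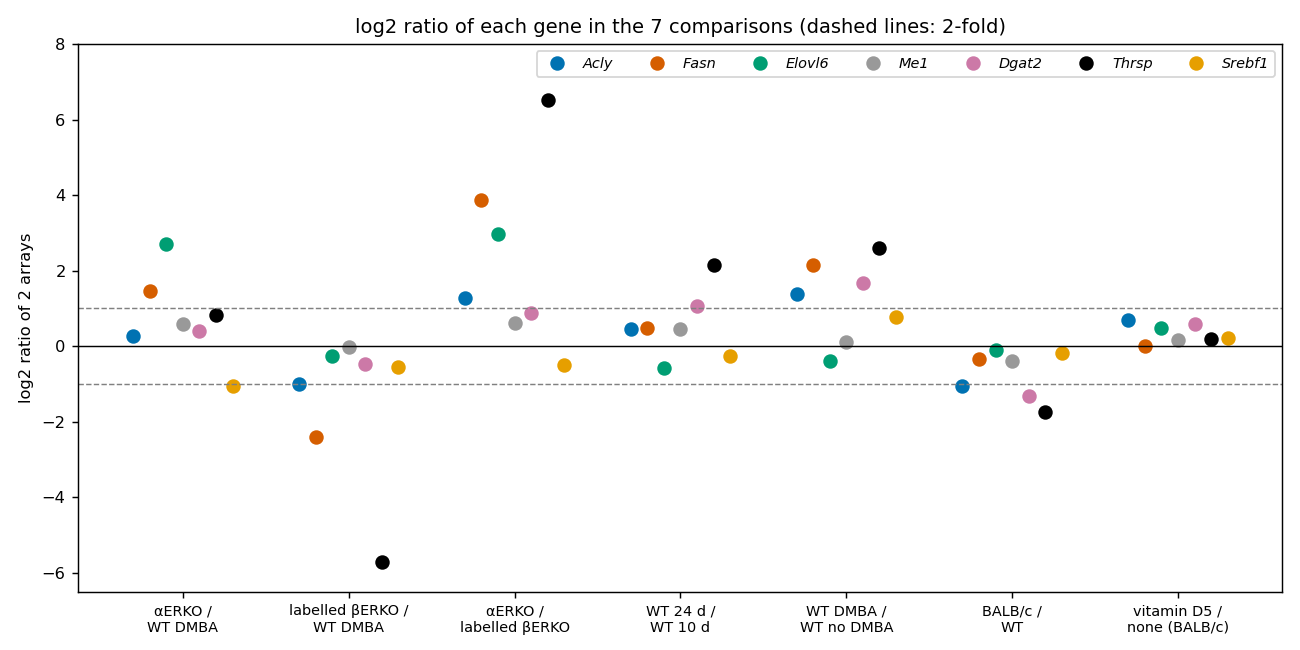
Each point is 1 gene's log2 ratio of 2 arrays, for the 7 comparisons along the x axis, and dashed lines mark 2-fold. Thrsp lies at -5.70 for the array labelled βERKO against WT and at 6.52 between the knockouts, and no gene passes 2-fold with vitamin D5.

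Set beside the 5 arrays of wild-type glands, which differ in time, DMBA, strain and vitamin D5, the αERKO array was above the highest for 6 genes. It exceeded that array by 1.73 for Elovl6, 1.46 for Fasn, 0.81 for Thrsp, 0.58 for Me1, 0.40 for Dgat2 and 0.28 for Acly. By the dimmer Fasn probe it was not above, at 2.96 against 2.97 on the WT array with DMBA. The gaps of Me1, Dgat2 and Acly were smaller than the SD of 0.59. For Srebf1 it was below the lowest. The array labelled βERKO was below all 5 for Thrsp, by 0.97, and for Elovl6, by 0.27, which is within the SD of 0.37, and inside their range for the other 5 genes.

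**Figure D3:**
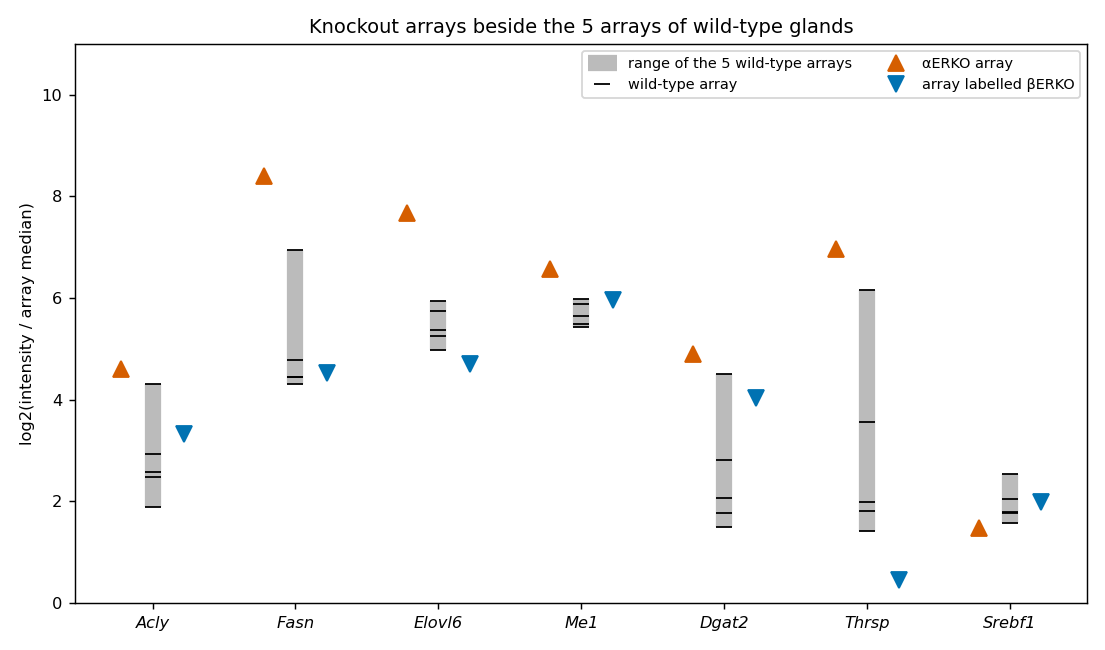
For each gene, the grey bar spans the levels (log2 of intensity over the array median) of the 5 wild-type arrays, each a black line, with both knockout arrays as triangles. The αERKO array lies above the bar for 6 genes, by 0.28 to 1.73, with Me1, Dgat2 and Acly within the SD of a ratio, 0.59. For Fasn this holds by the brighter probe only. The array labelled βERKO lies below the bar for Thrsp, by 0.97, and for Elovl6, by 0.27, within the SD.

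With culture time in WT glands without DMBA, Thrsp and Dgat2 were over 2-fold higher at 24 than at 10 days. The 24-day glands had spent their last 14 days with insulin alone. Culture time, here and below, and this change of hormones therefore cannot be told apart. Thrsp had a log2 ratio of 2.14 and Dgat2 1.06, with an SD of 0.23 from 522 probe pairs, and Dgat2 had 0.98 with cyclic loess. Fasn had 0.49 (0.73 by the dimmer probe), Acly 0.46, Me1 0.45, Srebf1 -0.27 and Elovl6 -0.59. Hence 2 of 7 were higher and 0 lower, beside 6.05% and 6.34% of probes, with a median of 0.46 against 0.09. Among probes good on both arrays, as all 7 genes were, 1.71% were higher and 2.86% lower.

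With DMBA at 24 days, 4 of the 7 genes were over 2-fold higher than without it and 0 lower, beside 10.1% and 8.46% of probes. The log2 ratio was 2.59 for Thrsp, 2.15 for Fasn (2.83 by the dimmer probe), 1.68 for Dgat2 and 1.38 for Acly, with an SD of 0.30 from 532 probe pairs. Srebf1 had 0.78, Me1 0.11 and Elovl6 -0.38. The median was 1.38 against -0.13 for all probes. The pretreatment of the array without DMBA is not given, so a difference in pretreatment cannot be told apart from DMBA.

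Glands of BALB/c mice had lower levels of Thrsp, Dgat2 and Acly than the WT 24-day glands without DMBA. Their log2 ratios were -1.75, -1.33 and -1.05, with an SD of 0.33 from 527 probe pairs, and Acly was within 2-fold under other scalings, at -0.83 with the 75th percentile. Me1 had -0.40, Fasn -0.34 (-1.33 by the dimmer probe), Srebf1 -0.19 and Elovl6 -0.10. This is 3 of 7 lower and 0 higher, beside 9.33% and 9.17% of probes, with a median of -0.40 against -0.15. The sign of the small ratios turned with scaling: Elovl6 had 0.11 and Srebf1 0.03 with the 75th percentile, and Fasn had 0.01 with cyclic loess. Over all probes, the share of 2-fold differences that were higher in BALB/c went from 49.6% to 67.1% with the 75th percentile.

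Vitamin D5 in BALB/c glands left all 7 genes within 2-fold. Acly had the largest log2 ratio, 0.70, followed by Dgat2 at 0.58, Elovl6 at 0.49 and Srebf1 at 0.22. Thrsp had 0.18, Me1 0.17 and Fasn -0.00 (0.49 by the dimmer probe), with an SD of 0.22 from 530 probe pairs. With vitamin D5, 5.12% of probes were over 2-fold higher and 7.06% lower, and the median was 0.22 for the members against 0.09 for all probes.

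Adipocytes express these genes, and markers of the cell type moved with several of the differences above. Of 13 adipocyte markers, 12 were measured, and their summed level, in multiples of the array median, was 308 on the WT 10-day array, 1017 at 24 days and 1841 with DMBA. It was 3286 for αERKO, 1632 on the array labelled βERKO, and 269 and 183 on the BALB/c arrays, and no defining marker was near background on the knockout arrays except Nnat on the array labelled βERKO. In bulk RNA, fewer cells of a type and less RNA per cell cannot be told apart.

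The median log2 ratio of the markers was 2.10 with culture time (11 markers), 1.84 with DMBA and -1.88 in BALB/c against WT glands. Thrsp had 2.14, 2.59 and -1.75 in the same order, and with DMBA its ratio was above those of 10 of the 12 markers. Fasn, Acly, Me1, Srebf1 and Elovl6 had lower ratios than every one of the 11 markers with culture time. With DMBA, Dgat2 at 1.68 and Fasn at 2.15 stood among the 12 markers, and Elovl6 was below all of them. Markers of other cell types were also higher with DMBA, 8 of 8 fibroblast markers with a median of 3.01, 7 of 7 endothelial ones with 2.30 and 6 of 7 macrophage ones with 1.88. Of 6 squamous and skin markers 4 were lower and 0 higher, with a median of -1.08, and 11 luminal epithelial markers had a median of -0.63. In BALB/c against WT glands, 10 of 12 adipocyte markers were over 2-fold lower and 1 higher, 6 of 7 macrophage markers were lower, with a median of -2.88, and 4 of 8 endothelial ones lower and 1 higher, with -0.97, while 7 fibroblast markers had a median of 0.94. With culture time, 3 of 7 endothelial and 3 of 7 macrophage markers were higher and 0 lower, with medians of 0.96 and 0.89, and 4 of 7 squamous and skin markers were lower, with -1.70. The part of adipocytes and of these cell types in the results was not tested.

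Between the array labelled βERKO and WT with DMBA, the markers differed less than Thrsp and Fasn. Their median was -0.64, with 4 of 12 over 2-fold lower and 0 higher. Of these 4, the adipokine gene Retn had -1.84, the glucose transporter gene Slc2a4 -1.78 and Cfd, which encodes adipsin, -1.22. The adipokine gene Adipoq had 0.33 and Fabp4, the fatty acid binding protein of fat cells, 0.21. Thrsp at -5.70 and Fasn at -2.41 were lower than all 12 markers, of which the lowest, Nnat, near background on that array, had -2.26. Against the WT array without DMBA the markers were higher, with a median of 1.11 over 11 markers, and Thrsp at -3.11 was again below all of them. Other cell types differed on this array too, against WT with DMBA. Lower by 2-fold were 5 of 7 macrophage markers, with a median of -2.32, 6 of 7 endothelial ones with -1.39 and 5 of 8 fibroblast ones with -1.08. Of 10 secretory epithelial markers 4 were lower and 1 higher, with a median of -0.16. Of 6 basal and myoepithelial ones 2 were lower and 1 higher, with -0.41. Of 6 markers of squamous epithelium and skin, 5 were higher, with a median of 3.31, and of 7 skeletal muscle markers 6 were higher, with a median of 2.40 and a summed level of 52.1 against 10.9. Their part in the ratios was not tested.

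Between αERKO and WT with DMBA the adipocyte markers had a median of 0.46, with 4 of 12 over 2-fold higher and 1 lower. Elovl6 at 2.70 exceeded 11 of the 12. Against the WT array without DMBA, Elovl6 at 2.32 was above 6 of the markers and below 6, and their median was 2.10. The αERKO array also differed in other cell types. The summed level of 10 measured skeletal muscle markers of 12 listed was 2445 there and 8.73 to 52.1 on the other 6 arrays, all 10 being good on the αERKO array. That of 12 luminal epithelial markers was 434 against 524 to 913 elsewhere, and that of 8 fibroblast markers 426 against 15.9 to 230. The sum of 8 brown adipocyte markers was 332 against 27.7 to 48.6, that of 10 secretory epithelial markers 143 against 191 to 492, and that of 8 lymphocyte markers 66.6 against 12.7 to 16.0. The brown adipocyte markers did not share one direction, however. Against WT with DMBA, 3 of the 8 were over 2-fold higher and 2 lower, with a median of 0.17. Against WT with DMBA, 8 of 10 secretory markers were over 2-fold lower, with a median of -1.90, 4 of 6 basal and myoepithelial ones with -1.17, and 7 of 7 macrophage ones with -2.07. Of 6 squamous and skin markers 4 were higher and 1 lower, with a median of 1.73 and a summed level of 179 against 8.55. The part of these cell types in the αERKO ratios was not tested.

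**Figure D4:**
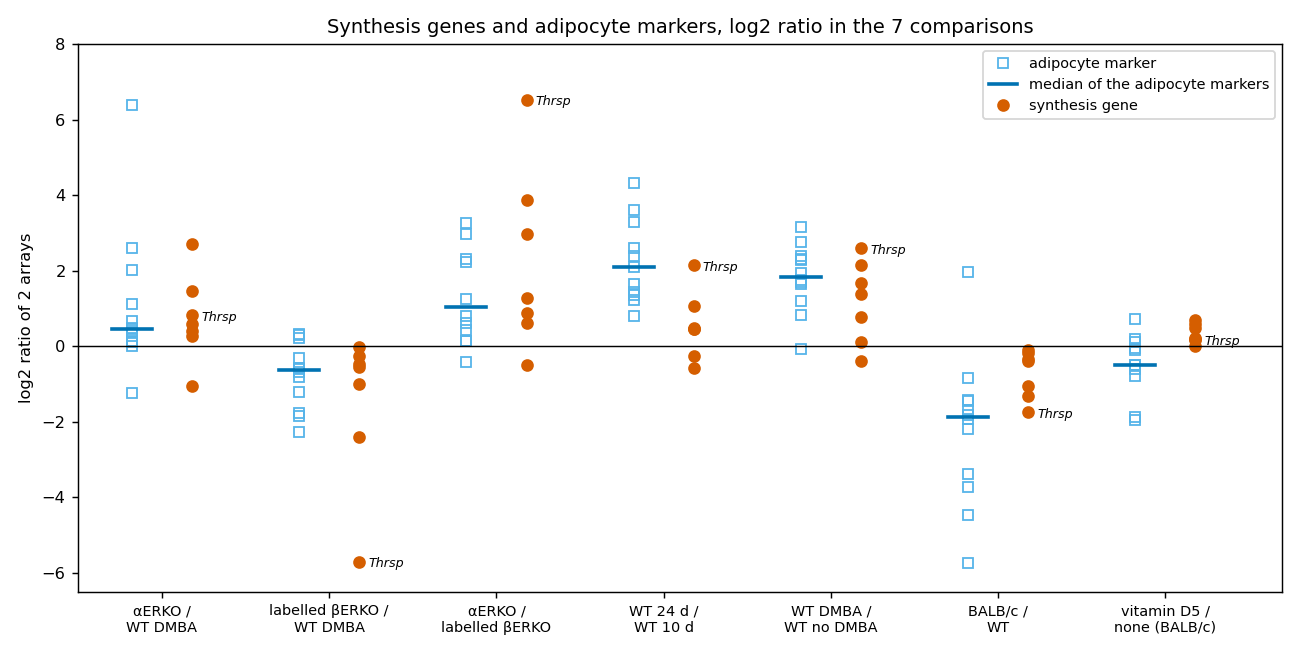
Open squares are the log2 ratios of the adipocyte markers above background on at least 1 of the 2 arrays, with their median as a line, and filled circles those of the 7 synthesis genes, in the 7 comparisons. Thrsp at -5.70 lies below every marker for the array labelled βERKO against WT, and near the marker median with culture time (2.14 against 2.10).

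Other enzymes of the same pathway did not share one direction. Of 43 listed, 38 were measured, and between αERKO and WT with DMBA 4 were over 2-fold higher and 10 lower. This is 10.5% and 26.3%, beside 11.7% and 14.1% of all probes, and the median was -0.06 against -0.09. The desaturase Scd2 had -2.39, the elongase of very long chains Elovl4 -2.31 and the dehydratase Hacd3 -2.11, while Mogat1, a monoacylglycerol acyltransferase, had 1.87. Elovl6 at 2.70 and Elovl4 at -2.31, both elongases, thus differed in opposite directions on the same arrays.

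On the array labelled βERKO, 2 of these enzymes were over 2-fold higher and 4 lower than with WT and DMBA, or 5.26% and 10.5% beside 6.96% and 8.37% of all probes, with a median of -0.08. These shares lie close to the background. Acss2, which makes acetyl-CoA from acetate, had 1.27 and Elovl4 1.20, and the acyl-CoA synthetase Acsl1 had -1.24 and Agpat2, an acyltransferase of glycerolipid synthesis, -1.19. Against the WT array without DMBA, 9 of 38 were higher on the array labelled βERKO and 3 lower. This is 23.7% and 7.89%, beside 8.24% and 6.9% of all probes. For αERKO that control gave 13 higher and 10 lower, or 34.2% and 26.3% beside 15.4% and 20.9%. In the direct comparison of the knockouts, 7 were higher and 10 lower on the αERKO array, or 18.4% and 26.3% beside 13.5% and 16.6% of all probes, with a median of -0.11. Elovl4 had -3.52, Hacd3 -2.36, Mogat1 2.92 and Pck1, the enzyme of glycerol formation in fat cells, 2.77.

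With culture time, 4 of 37 were higher and 1 lower, or 10.8% and 2.70% beside 6.05% and 6.34% of all probes, with a median of 0.11. Pck1 had 5.27, Acsl1 2.82, the glycerol channel Aqp7 1.66 and Gpd1, glycerol phosphate dehydrogenase, 1.65. With DMBA, 14 of 37 were higher and 3 lower, which is 37.8% higher where 10.1% of all probes were, with a median of 0.41. In BALB/c glands 13.2% were higher and 26.3% lower, beside 9.17% and 9.33% of all probes, and with vitamin D5 0 of 38 were higher and 7.89% lower, beside 5.12% and 7.06%.

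Of 9 other enzymes of NADPH supply or of the pentose phosphate pathway, 7 were measured. Of these, 0 were over 2-fold in the 3 genotype comparisons or with culture time. Between 6.05% and 13.5% of all probes were higher in these comparisons and 6.34% to 16.6% lower, so few of 7 genes would pass at the background share. The largest ratio was -0.92, for Taldo1, transaldolase of the pentose phosphate pathway, between the knockouts. With DMBA, H6pd, the hexose phosphate dehydrogenase of the endoplasmic reticulum, had 1.36, 1 of 7 beside 10.1% of all probes.

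Of 23 regulators of lipid synthesis, 18 were measured, and 1 was higher and 1 lower between αERKO and WT, 5.56% in each direction beside 11.7% and 14.1% of all probes, with a median of -0.36. The insulin-signalling kinase Akt2 had 1.39 and Usf1, an E-box factor that acts on the Fasn promoter, -1.76. On the array labelled βERKO, 0 were higher and 1 lower, or 5.56% beside 8.37% of all probes, with a median of 0.06, the one being the coactivator Ppargc1b at -1.46. Nr1h3, which encodes liver X receptor α, had -0.95, the hormone gene Fgf21 0.94 and Mlxipl, which encodes ChREBP, -0.71. With DMBA, 4 were higher and 0 lower, or 22.2% beside 10.1% of all probes.

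Of 23 genes of cholesterol synthesis, which answer mainly to SREBP-2, 21 were measured, and 6 were over 2-fold lower and 3 higher on the αERKO array against WT, or 28.6% and 14.3% beside 14.1% and 11.7% of all probes, with a median of -0.27. Cyp51 had -1.40 and Mvd -1.37, while Sc5d had 1.36. On the array labelled βERKO 0 of 20 passed 2-fold, where 8.37% of all probes were lower and 6.96% higher, with a median of -0.22. Nsdhl had the largest ratio there, -0.96.

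Of 25 genes of fatty acid uptake and the lipid droplet, 24 were measured. On the αERKO array against WT the median was -0.05, and 3 were higher and 6 lower, or 12.5% and 25.0% beside 11.7% and 14.1% of all probes. Those past 2-fold included Fabp3, the fatty acid binding protein of heart and skeletal muscle, at 4.27, Fitm1, a fat storage gene of muscle, at 2.27, and the droplet coat gene Plin2 at -2.33. On the array labelled βERKO, 0 were higher and 3 lower, or 12.5% beside 8.37% of all probes, with a median of -0.17. Gpihbp1, the capillary anchor of lipoprotein lipase, had -4.39, the fatty acid transporter Slc27a1 -1.29 and Lpl, lipoprotein lipase itself, -1.03. Between the knockouts 6 of the 24 were higher and 4 lower on the αERKO array, or 25.0% and 16.7% beside 13.5% and 16.6% of all probes, with a median of 0.11. With culture time 7 of 23 were higher and 0 lower, or 30.4% higher beside 6.05% of all probes. With DMBA 10 of 23 were higher and 2 lower, or 43.5% and 8.70% beside 10.1% and 8.46%. In BALB/c against WT glands 1 of 24 was higher and 9 lower, or 4.17% and 37.5% beside 9.17% and 9.33%.

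Endothelial markers, 8 listed, had a summed level of 73.3 on the WT array with DMBA, 64.1 for αERKO and 25.3 on the array labelled βERKO. Their part in the Gpihbp1 ratio was not tested.

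Fatty acid oxidation, the opposing pathway, was measured by 21 of 22 listed genes. On the αERKO array 1 was higher and 3 lower than with WT and DMBA, or 4.76% and 14.3% beside 11.7% and 14.1% of all probes, with a median of -0.02. On the array labelled βERKO 0 were higher and 1 lower, or 4.76% beside 8.37%, with a median of 0.08. Cpt1a, which admits fatty acids to mitochondria, had -1.38 on the αERKO array.

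The genes whose levels over the 7 arrays were most like the mean of the 7 members were sought among 751 genes good on all arrays with an SD of at least 1. Pearson correlations of the first 10 were 0.98 to 0.99 over 7 arrays. They were Pld4, Nat8l, H2-Oa, Crip1, Olfr812, Unc45b, Klf2, Pxmp2, Apoe and Ifi47. Like the members' mean, which was 1.76 above its average on the αERKO array and 1.02 above it with DMBA, they were high on those arrays. Apoe, which encodes apolipoprotein E, was at 8.19 and 7.48 there, at 6.29 on the WT 24-day array without DMBA and at 5.44 on the array labelled βERKO. With 7 arrays of which 1 pair sets the pattern, this is a description only.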

How the data were processed

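Arrays were hybridized and scanned by the authors, and CodeLink Expression Analysis software gave each spot an intensity. The deposited intensity is the spot's signal less its local background, with a quality call. A normalized intensity column, also deposited per array, was used as an alternative. The separate series table of normalized values was not used here.

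Each array was scaled to the median intensity of its gene probes, following the paper's methods, and log2 values were computed after negative and zero intensities had been set to the smallest positive one. Probes were named through RefSeq (14763 of 15553 with a RefSeq accession matched), and a gene was given by its probe with the highest mean. Percentages of probes over 2-fold count probes called good on either array compared. Among probes good on both arrays, as all 7 genes were, the percentages were smaller in every comparison. They were 8.10% higher and 9.65% lower between αERKO and WT with DMBA, and 1.12% and 1.07% with vitamin D5. Python 3.11.15 with pandas 2.3.3 and numpy 2.4.6 was used, and limma 3.58.1 in R 4.3.3 for quantile normalization, cyclic loess and normexp with an offset of 50. The counting was tested on simulated data.

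The genes and all lists were chosen with earlier results of these data known. From each pathway list, the text names some of up to 4 genes with the largest ratios in the genotype and time comparisons, among probes good on both arrays, and 10 genes by likeness. Some genes that this rule names are not reported here. Motifs were searched on both strands. The SD of a ratio came from probes that share an accession. The WT array without DMBA was added as a control after seeing the data.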

Additional observations from a re-analysis of the deposited data

How the results depend on the processing

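With no replicate arrays, leaving one out was not possible. No paired analysis was possible because each group has 1 array. The number of members over 2-fold was within 1.5 times the first count under most alternatives. With culture time, 2 members passed, and 1 passed with 75th percentile scaling, quantile normalization, cyclic loess, normexp or a 3-fold threshold, the member lost being Dgat2. At 3-fold, 1 member passed between αERKO and WT in place of 3, and 1 between BALB/c and WT in place of 3. At 1.5-fold, 1 passed with vitamin D5 in place of 0. With the WT array without DMBA as the control, chosen after seeing the data, 5 passed for αERKO in place of 3. Alternatives changed 217 ratios of single genes by at least 0.005 (log2), of which 189 lay within the SD of their first value and 28 did not, 11 of these with that control. The largest change with the deposited normalized intensity was 0.0049. All 7 genes were above the floor and good on every array, so a floor or a filter on quality could not change a ratio. A ratio of either sign turned in 13, each within 2-fold at first. The cause of these changes was not tested, apart from the threshold's own construction. Normexp with an offset added to every spot gave Thrsp -4.93 on the array labelled βERKO against WT, and 5.53 between the knockouts. Precision is limited by 1 array per group and, for dim probes such as Srebf1, the second Fasn probe and Thrsp on the array labelled βERKO, by signal close to the local background.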
